A study of Canis lupus familiaris with 62 samples.

Results

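Chromosomes 8 and 31 of the dog were chosen by the correlation of their expression scores over tumours in earlier results of these data, in which they ran in opposite directions. The genes taken were those of the counts table with more than 1 exon row and a span under 500 kb. On chromosome 8 the genes of the last stretch, which carries the immunoglobulin heavy chain locus, were left out. These conditions kept 1039 of the 30951 genes of the table, 707 of 1053 on chromosome 8 and 332 of 422 on chromosome 31. On chromosome 8 295 genes had 1 exon row, 6 were too long and 45 lay past the limit, and on chromosome 31 84 had 1 exon row and 6 were too long. Just inside the conditions, the longest genes kept spanned 469808 bases on chromosome 8 and 360739 on chromosome 31, and the shortest left out for length 507141 and 516603. The last chromosome 8 gene kept started at 72479905 and the next at 72511343 (CanFam3.1). Of the 1039 genes, 650 had enough counts to be tested between treatments (490 and 160), and 463 had a mean log2 CPM (log2 of a gene's share of the library's counts, scaled as CPM) of at least 2 and entered the scores below (364 and 99).

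Genes that neighbour each other on a chromosome share its copy number, parts of its chromatin and its time of replication, and in tumours with gained or lost chromosomes their RNA levels tend to shift together. A mean over many neighbouring genes is therefore used as a coarse readout of a chromosome or of a stretch of it. Such a mean also moves with the mix of cells in a tissue and with RNA quality, because genes of like length and use lie near each other. Dog chromosome 8 corresponds over most of its length to human chromosome 14, and dog chromosome 31 to human chromosome 21. Loss of chromosome 14 is among the losses known from human meningioma. Copy number was not measured in the data used here.

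The 62 libraries came from meningiomas that arose spontaneously in dogs, each a tumour of the brain's membranes kept as formalin-fixed, paraffin-embedded tissue. By the treatment label 27 dogs had none (untreated), 7 a steroid, of which 1 alone and 6 with an anti-epileptic drug, 3 an anti-epileptic alone, 3 radiotherapy alone (RT), 13 surgery alone (Sx) and 9 surgery with radiotherapy (SxRT). Dogs of many breeds, 31 female and 31 male, 7 of them intact, make up the groups, and the labels give no age, no molecular class and no order of treatment and sampling. Because 21 of the 22 surgical tumours have sample names that start with S and all others start with N, the kind of specimen behind the name and the surgical label cannot be told apart. The median library held 4190135 counts (range 1967061 to 12063982), mitochondrial genes accounted for 3.00% to 46.7% of the counts, and the first principal component set 6 libraries apart. No identifier could be paired with a gene name, so markers of meningioma or other cells were not analysed and the functions of the genes are not described. In these bulk samples fewer cells of a type and less RNA per cell cannot be told apart.

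Over whole chromosomes the opposition was weak. For each scored gene the mean over the 62 libraries was subtracted from its log2 CPM. These differences were averaged per chromosome in each library, and the median of the 38 autosome averages of that library was subtracted to give the score, so that 0 is the level of the library's typical autosome. The scores of chromosome 8 ran from -0.386 (untreated replicate 13) through a median of -0.021 to 0.515 (Sx replicate 10). The scores of chromosome 31 ran from -0.285 (untreated replicate 7) through a median of -0.0065 to 0.507 (Sx replicate 11). Over the 62 libraries the 2 scores had a Pearson r of -0.357 and a Spearman rho of -0.238. These values chose the chromosomes and are given as a description. Among all pairs of the 38 autosomes this r was the 44th lowest. Chromosomes 9 and 21 had the lowest r of all (-0.704), chromosomes 18 and 20 the highest (0.787), and the median pair stood at 0.010.

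The scores had opposite signs in 37 of 62 libraries, 15 with chromosome 8 above 0 and 22 with chromosome 31 above 0, and the same sign in 25. With both scores past 0.2, 4 libraries were opposed and 0 moved the same way. In untreated replicate 7 chromosome 8 stood at 0.51 and chromosome 31 at -0.28. In Sx replicate 3 they stood at 0.49 and -0.21, and in steroid replicate 2 at 0.21 and -0.22. Sx replicate 8 was the 1 library of the reverse kind, with -0.24 and 0.39. In untreated replicate 7 74.2% of the chromosome 8 genes and 37.4% of the chromosome 31 genes lay above their means over libraries. In Sx replicate 8 these shares were 39.3% and 66.7%. At a limit of 0.1, 8 libraries were opposed and 3 moved the same way, and at 0.3 there were 0 of either. Pairs of autosomes had a median of 1 opposed library and at most 10. Several of the libraries farthest out moved on 1 chromosome only: Sx replicate 11 had 0.51 on chromosome 31 and -0.01 on chromosome 8, and untreated replicate 13 had -0.39 on chromosome 8 and 0.04 on chromosome 31.

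**Figure D1:**
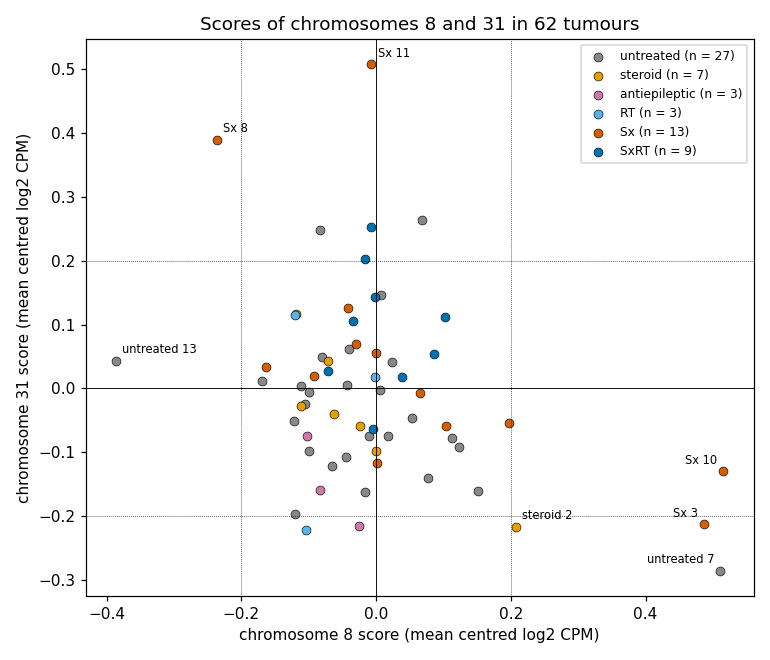
Chromosome 8 score (x axis) against chromosome 31 score (y axis), both as mean centred log2 CPM, 1 point per tumour coloured by treatment label, with dotted lines at -0.2 and 0.2. The points at the lower right (untreated 7, Sx 3 and steroid 2) and at the upper left (Sx 8) are the 4 libraries opposed past 0.2, and most other points lie near 0 without a slope.

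The chromosome-wide value varied with the libraries and the genes taken. Without the 3 libraries highest on chromosome 8 r was -0.187. Leaving out 1 library at a time gave values from -0.398 to -0.285. Without subtracting the autosome median r was -0.020. The more highly expressed genes of both chromosomes gave 0.170 and the shorter genes 0.284, both in the other direction. In the name numbers 11 to 16 r was -0.518 and in 17 to 22 it was -0.144. These numbers are part of the sample names, and the labels do not explain them. Within untreated tumours r was -0.384 and within surgical tumours -0.580.

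The opposition was strongest between certain stretches of the chromosomes. Each chromosome was divided into windows of 5 Mb by the start of the genes, and 11 of 15 windows on chromosome 8 and 5 of 8 on chromosome 31 held at least 10 scored genes. Of the 55 pairs of windows between the chromosomes 35 had a negative r and 20 a positive one, from -0.687 to 0.528 with a median of -0.074. Below -0.4 lay 6 pairs, all of them between the stretch of chromosome 8 from 10 to 40 Mb and the windows of chromosome 31 from 25 to 30 and from 35 to 40 Mb. The lowest r, -0.687 (rho -0.672), was between chromosome 8 from 25 to 30 Mb (30 scored genes) and chromosome 31 from 35 to 40 Mb (41 scored genes). Chromosome 8 from 10 to 15 Mb followed, with -0.653 against the same end of chromosome 31 and -0.496 against chromosome 31 from 25 to 30 Mb. The windows of chromosome 8 from 30 to 35 and from 35 to 40 Mb had -0.480 and -0.422 against the end of chromosome 31.

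**Figure D2:**
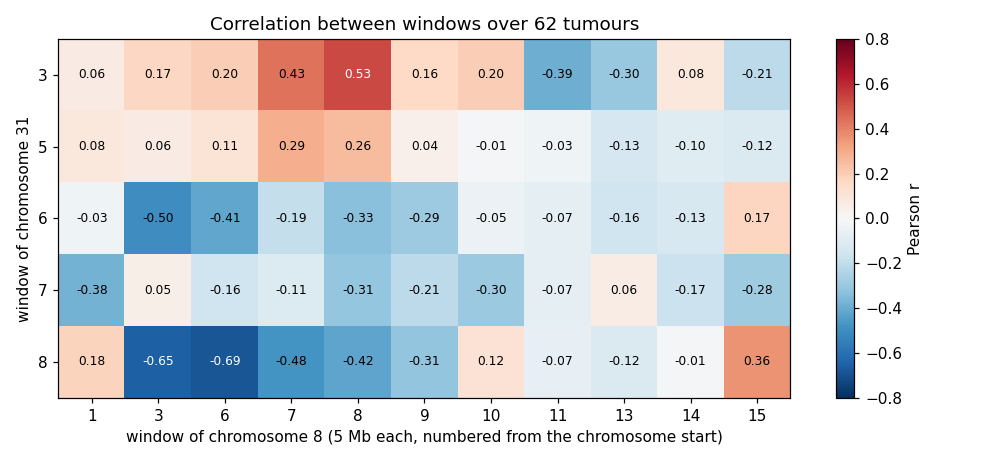
Pearson r over 62 tumours between each window of chromosome 8 (columns) and of chromosome 31 (rows), numbered from the chromosome start in steps of 5 Mb, with blue for negative and red for positive values. The dark blue cells lie where windows 3 and 6 of chromosome 8 meet window 8 of chromosome 31 (-0.65 and -0.69), while window 3 of chromosome 31 is red against window 8 of chromosome 8 (0.53).

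With the chromosome 31 score, the chromosome 8 windows from 10 to 15 and 25 to 30 Mb had r of -0.550 and -0.597, and all others lay closer to 0 or above it. The windows from 40 to 45, 50 to 55 and 60 to 65 Mb had -0.324, -0.198 and -0.217. The first 5 Mb of chromosome 8 had an r of 0.043 with the chromosome 31 score, the window from 45 to 50 Mb had 0.032 and the last, from 70 Mb on, 0.146. Single pairs among these stretches were still opposed, with r of -0.379 between the first 5 Mb of chromosome 8 and chromosome 31 from 30 to 35 Mb, and of -0.392 between chromosome 8 from 50 to 55 Mb and chromosome 31 from 10 to 15 Mb. On chromosome 31 the windows from 10 to 15 and from 20 to 25 Mb had r of 0.189 and 0.101 with the chromosome 8 score, while the 3 windows from 25 to 40 Mb lay between -0.326 and -0.317. The window of chromosome 31 from 10 to 15 Mb ran with chromosome 8 from 35 to 40 Mb (0.528) and against its own chromosome's end (-0.423).

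Divided into 2 parts, chromosome 8 (364 scored genes) held together more than chromosome 31 (99 scored genes). The effect of the unequal gene numbers on r was not tested. The first and second parts of chromosome 8, divided at the median start of its scored genes (36416628), had r of 0.703 with each other, and those of chromosome 31, divided at 32213438, had -0.049. The first part of chromosome 8 against the second part of chromosome 31 gave -0.516, the first parts against each other 0.063 and the second parts -0.151. The window of chromosome 31 from 35 to 40 Mb, which holds 41 of the 99 scored genes of its chromosome, had an r of -0.0017 with the rest of that chromosome. On chromosome 8 the window from 25 to 30 Mb had 0.665 with the rest of its chromosome and 0.801 with the window from 10 to 15 Mb. The first 5 Mb, in contrast, had 0.824 with the window from 45 to 50 Mb and 0.037 with the window from 10 to 15 Mb. The window from 60 to 65 Mb had -0.101 with the rest of chromosome 8 and -0.469 with the window from 45 to 50 Mb. The first principal component (27.7% of the variance) had r of -0.731 with the first 5 Mb and -0.785 with 45 to 50 Mb. With the windows from 10 to 15, 25 to 30 and 60 to 65 Mb it had 0.073, 0.065 and 0.736. Its part in how these windows ran together was not tested.

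The pair of windows with the lowest r was chosen after its values were seen and is a description too. Among the 63857 pairs of windows from different autosomes, 51 pairs (0.080%) had an r this low or lower. Each of the 2 windows was the other's lowest partner, among 352 windows of other autosomes for the chromosome 8 window and 358 for the chromosome 31 window. The chromosome 8 window had r below -0.5 with 4 such windows and the chromosome 31 window with 6, so neither ran against its partner alone. The scored genes of the chromosome 31 window had a median span of 25916 bases, and those of the chromosome 8 window 43018. Over the windows of other autosomes, r with the chromosome 8 window went up with the windows' log span (r 0.474 across 352 windows) and r with the chromosome 31 window went down with it (-0.573 across 358 windows). These points share the same libraries and are not independent. The part of gene length in the opposition was not tested.

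In the chromosome 8 window 27 of 30 genes had a negative r with the mean of the chromosome 31 window, from -0.617 to 0.241, and 13 lay below -0.3. Over scored genes of the other autosomes 46.8% had a negative r with that mean. In the chromosome 31 window 38 of 41 genes had a negative r with the chromosome 8 window, from -0.455 to 0.117, and 12 lay below -0.3. Here the share over other autosomes was 48.3%. The windows were chosen for their low r, which these genes make up, so the counts support nothing.

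The 2 windows had opposite signs in 50 of 62 libraries. Past 0.2 in both, 12 libraries were opposed and 0 moved the same way. In 10 of the 12 the chromosome 8 window was low and the chromosome 31 window high, whereas 3 of the 4 opposed by whole chromosome were high on chromosome 8. Sx replicate 12 stood at -0.73 on chromosome 8 and 0.82 on chromosome 31, and 37 of the 41 genes of the chromosome 31 window were above their means. Sx replicate 8 stood at -0.68 and 0.75, SxRT replicate 6 at -0.48 and 0.57, and steroid replicate 5 at -0.39 and 0.53. Untreated replicate 7 (1.02 and -0.35) and untreated replicate 21 (0.34 and -0.34) were the 2 of the other kind. Of the other libraries high on chromosome 8, Sx replicate 10 stood at 0.87 and -0.18 and Sx replicate 3 at 0.60 and -0.17. In these 2 tumours the chromosome 31 window stayed within the limit of 0.2.

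**Figure D3:**
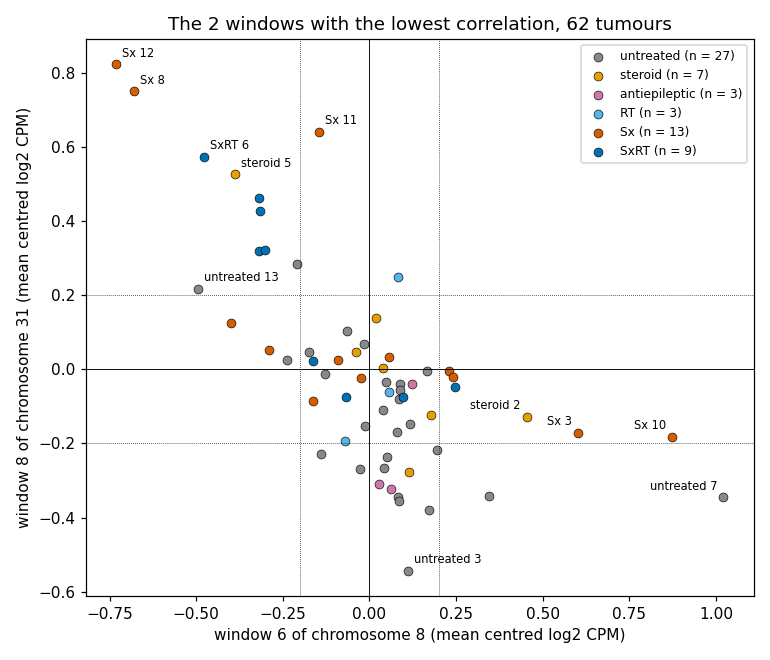
Window 6 of chromosome 8 (from 25 to 30 Mb, x axis) against window 8 of chromosome 31 (from 35 to 40 Mb, y axis) as mean centred log2 CPM, 1 point per tumour coloured by treatment label, with dotted lines at -0.2 and 0.2. The points fall from the upper left to the lower right, and the corners past 0.2 in the same direction hold 0 points. In the upper left corner past 0.2 lie 5 of 9 SxRT tumours, Sx 8, Sx 12, steroid 5, untreated 13 and untreated 16.

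Depth moved with these windows. The log2 total count had an r of 0.518 with the chromosome 31 window and of -0.355 with the chromosome 8 window. The 10 libraries with chromosome 8 low and chromosome 31 high had a median total of 5211798 counts (from 4292195 to 12063982), and the 50 libraries of neither kind 4003829 (from 1967061 to 9997451). With the linear part of log2 total counts taken out of both windows, r was -0.629. The value was -0.690 with the first principal component taken out and -0.684 with the mitochondrial share taken out. The chromosome 8 and 31 windows had r of 0.065 and -0.210 with that component and -0.105 and 0.091 with that share. Taking out measures so weakly tied to the windows could change little. Between the windows r was -0.578 in untreated and -0.777 in surgical tumours, and -0.654 and -0.722 in the earlier and later name numbers. With any 1 library left out it lay between -0.711 and -0.647.

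**Figure D4:**
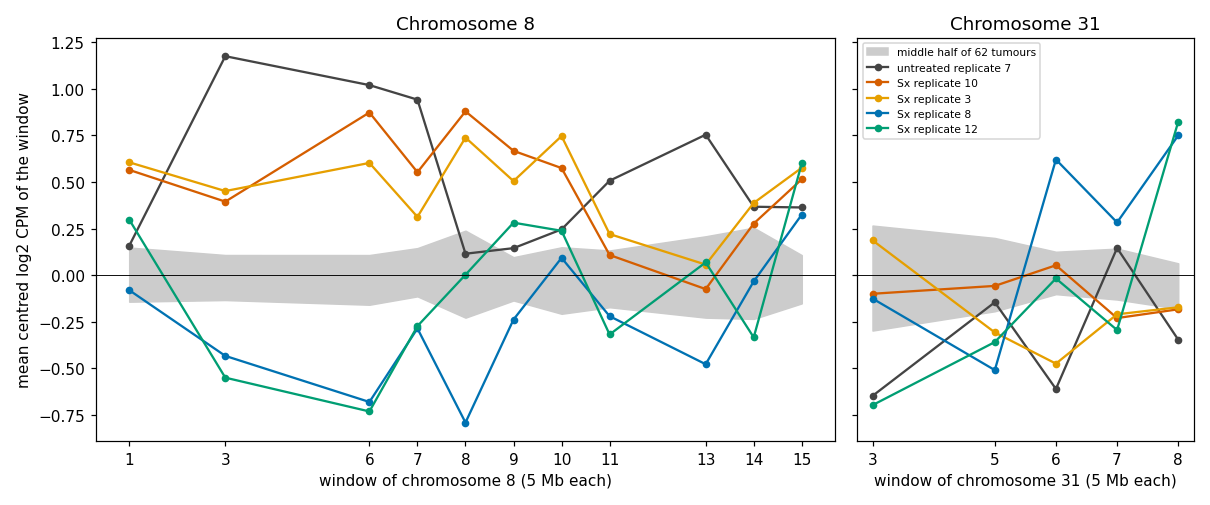
Mean centred log2 CPM of each 5 Mb window along chromosome 8 (left) and chromosome 31 (right) in 5 tumours chosen for their position in the plots of scores, with the range between the lower and upper quartile of the 62 tumours in grey; windows with fewer than 10 scored genes are left out. Untreated replicate 7 is high over windows 3 to 7 of chromosome 8, at 0.12 in window 8, and high again from 50 to 55 and 60 to 75 Mb. Sx replicates 3 and 10 are high from window 1 to window 10 and again from 65 Mb on. Sx replicates 8 and 12 are low at windows 3 and 6 of chromosome 8 and high at window 8 of chromosome 31.

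The profiles of single tumours differed in which stretch moved. In untreated replicate 7 the windows of chromosome 8 from 10 to 15, 25 to 30 and 30 to 35 Mb stood at 1.18, 1.02 and 0.94, and the next, from 35 to 40 Mb, at 0.12. Farther along, this tumour was high again, with 0.51 from 50 to 55 Mb and 0.75 from 60 to 65 Mb. The windows from 65 to 70 and 70 to 75 Mb stood at 0.37 and 0.36. In Sx replicate 10 the window from 35 to 40 Mb was as high as that from 25 to 30 Mb, with 0.88 and 0.87. On chromosome 31 Sx replicate 8 was high in the windows from 25 to 30 Mb (0.62) and 35 to 40 Mb (0.75), and Sx replicate 12 in the latter only, with 0.82 against -0.02.

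Gene by gene, the 2 chromosomes leaned against each other. Of the 364 scored genes of chromosome 8, 243 (66.8%) had a negative r with the chromosome 31 score, 42 (11.5%) lay below -0.3 and 16 above 0.3. Over the scored genes of the other autosomes 49.0% were negative and 5.21% below -0.3. Of the 99 scored genes of chromosome 31, 61 (61.6%) had a negative r with the chromosome 8 score, 13 (13.1%) lay below -0.3 and 7 above 0.3. Over other autosomes 38.4% were negative and 7.74% below -0.3. Since these genes form the scores that chose the chromosomes, these shares support nothing. Within their own chromosome 82.4% of the chromosome 8 genes and 72.7% of the chromosome 31 genes had a positive r with the mean of the others.

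By the rule for named genes, the 2 genes of each chromosome with the lowest r against the other chromosome's score are given. ENSCAFG00000013151, on chromosome 8 from 11204696 to 11267086, had the lowest, -0.526. Its log2 CPM ran from 8.15 through 9.30 to 10.81 in untreated, from 7.95 through 9.18 to 10.21 in Sx and from 8.39 through 8.98 to 9.16 in SxRT tumours (lowest, median and highest). It was counted in every library, 1130 times or more. Groups overlapped, and the highest SxRT tumour lay below the untreated median. ENSCAFG00000014219, on chromosome 8 from 26353871 to 26364914, had r of -0.480. Its log2 CPM was highest in untreated replicate 7 (7.42) and lowest in steroid replicate 5 (4.28), with a median of 6.30 over all tumours. In the 2 libraries with the highest chromosome 31 scores, Sx replicate 11 and Sx replicate 8, it stood at 6.11 and 5.62. Its last bases are overlapped by ENSCAFG00000014226 on the opposite strand, from 26364838 on, so reads there cannot be assigned to either. The 2 genes ran together (r 0.565). Between surgical and untreated tumours neither was called, with fitted log2 fold changes of -0.28 and -0.25 (edgeR adjusted p 0.269 and 0.128). Between SxRT and Sx tumours edgeR called neither.

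On chromosome 31 the lowest were ENSCAFG00000012228, from 39784506 to 39788183, with -0.434, and ENSCAFG00000009559, from 29909388 to 30002418, with -0.370. Neither ran with its own chromosome, with r of -0.246 and -0.096 against the mean of its other genes, and their r with each other was 0.417. The log2 CPM of ENSCAFG00000012228 ran from -1.16 (0 counts) through 2.45 to 6.18 in untreated and from 0.38 through 1.497 to 5.09 in surgical tumours. The fitted log2 fold change was -1.47 (SE 0.523, edgeR adjusted p 0.0437), and 3 of 22 surgical values exceeded the untreated median. The log2 CPM of ENSCAFG00000009559 ran from 3.69 through 5.57 to 6.91 in untreated and from 3.49 through 4.86 to 5.98 in surgical tumours. The fitted log2 fold change was -0.83 (SE 0.231, edgeR adjusted p 0.00909), and 2 of 22 surgical values exceeded that median. Between the chromosomes the named genes did not form opposed pairs, with the 4 r between -0.253 and 0.102. The chromosome 8 score had an r of -0.411 with the first principal component. In the 6 libraries set apart on it, ENSCAFG00000012228 ran from 2.82 to 6.18 and ENSCAFG00000009559 from 6.30 to 7.12. Their medians over all tumours were 2.22 and 5.30. The part of this component in their r and fold changes was not tested.

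Treatment groups overlapped in both scores, except that on chromosome 31 the 3 anti-epileptic tumours lay below all 9 SxRT tumours. On chromosome 8 the score ran from -0.386 through a median of -0.040 to 0.511 in untreated, from -0.119 through -0.063 to 0.207 in steroid, from -0.236 through 0.000 to 0.515 in Sx and from -0.072 through -0.0049 to 0.102 in SxRT tumours. The 3 anti-epileptic tumours had -0.103, -0.083 and -0.025 and the 3 RT tumours -0.121, -0.104 and -0.0011. On chromosome 31 the score ran from -0.285 through -0.045 to 0.263 in untreated, from -0.217 through -0.040 to 0.117 in steroid, from -0.212 through 0.020 to 0.507 in Sx and from -0.064 through 0.106 to 0.252 in SxRT tumours. The 3 anti-epileptic tumours had -0.216, -0.159 and -0.074 and the 3 RT tumours -0.221, 0.019 and 0.116. Sx tumours spread most widely on both chromosomes, with SDs of 0.224 and 0.201 (n = 13), and in 12 of 13 the scores had opposite signs. Only 3 of the 13 were opposed past 0.1 and 2 past 0.2, so most of these signs rest on small scores. In SxRT tumours chromosome 31 was above 0 in 8 of 9.

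**Figure D5:**
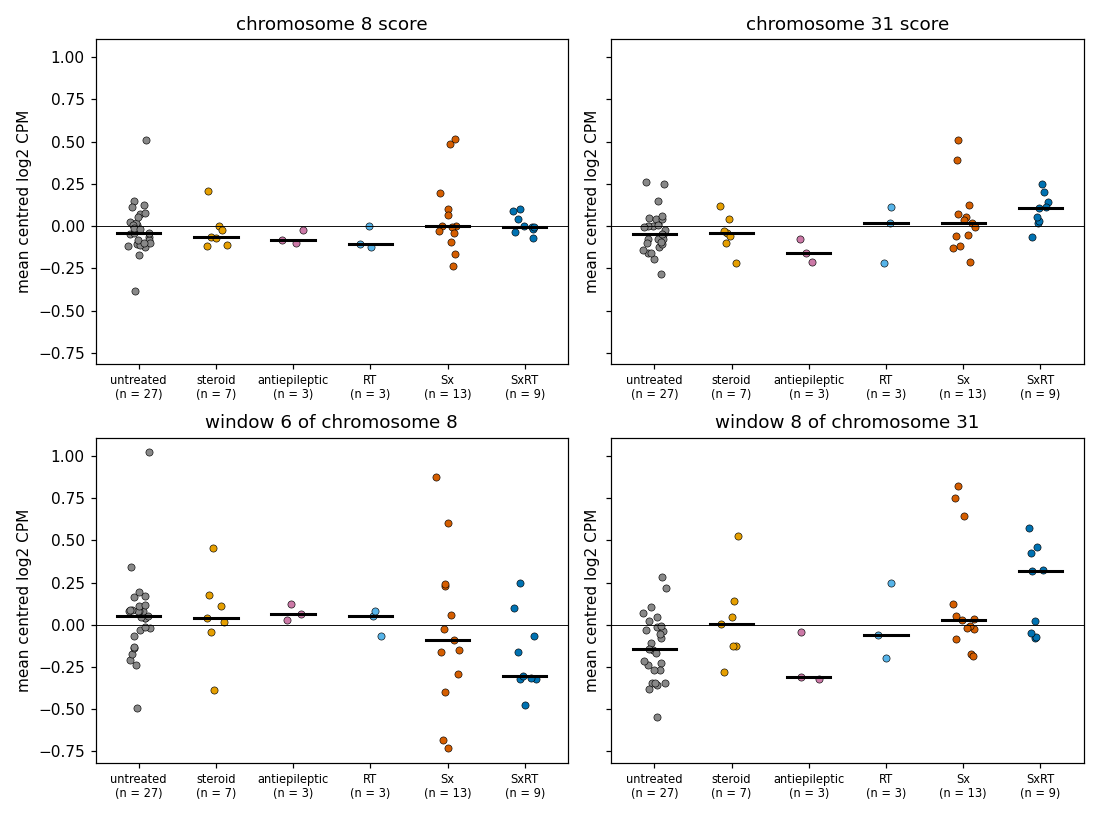
Scores of the whole chromosomes (upper panels) and of window 6 of chromosome 8 and window 8 of chromosome 31 (lower panels) by treatment label as mean centred log2 CPM, 1 point per tumour, with a bar at the group median and sideways scatter only to part the points. In the upper panels all groups overlap except anti-epileptic and SxRT on chromosome 31, and in the lower panels the SxRT medians stand apart from the untreated ones in opposite directions (-0.30 and 0.32 against 0.05 and -0.15).

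In the pair of windows with the lowest r the SxRT and untreated medians lay farther apart than in the whole-chromosome scores. The chromosome 31 window from 35 to 40 Mb ran from -0.543 through -0.146 to 0.285 in untreated, from -0.183 through 0.026 to 0.824 in Sx and from -0.076 through 0.320 to 0.574 in SxRT tumours. The chromosome 8 window from 25 to 30 Mb ran from -0.494 through 0.051 to 1.02 in untreated, from -0.731 through -0.090 to 0.873 in Sx and from -0.478 through -0.301 to 0.246 in SxRT tumours. The 10 libraries with chromosome 8 low and chromosome 31 high past 0.2 comprised 5 of 9 SxRT, 2 of 13 Sx, 2 of 27 untreated and 1 of 7 steroid tumours. Both of the reverse kind were untreated. No p is given for these scores, and with deviations from treatment group means r between the windows was -0.688. Such a distance was not particular to this pair, and some chromosome 8 windows were higher in SxRT tumours. From 0 to 5 Mb the medians were -0.030 in untreated and 0.174 in SxRT tumours, and from 45 to 50 Mb -0.076 and 0.199.

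Single genes were tested between surgical (mean of Sx and SxRT) and untreated tumours, a contrast that the choice of chromosomes did not use. On chromosome 8 42 of 490 tested genes were higher in surgical tumours (8.57%) and 50 lower (10.2%) by the edgeR quasi-likelihood test at an adjusted p under 0.05. On chromosome 31 16 of 160 were higher (10.0%) and 14 lower (8.75%). Over all 18370 genes tested 6.37% were higher and 10.4% lower. Beside this background the shares lay near it in the lower direction and somewhat above it in the higher direction. It also holds genes outside the conditions used here, which 15869 tested genes of chromosomes 1 to 38 met. Shares over those 15869 genes are not given. Median fold changes were -0.04 on chromosome 8, -0.01 on chromosome 31 and -0.02 over all genes on the log2 scale. Each chromosome held genes that changed in both directions.

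The calls were placed unevenly. The chromosome 31 window from 35 to 40 Mb held 12 of the 16 higher genes of its chromosome, among 54 tested (22.2%), and 2 lower. The chromosome 8 window from 25 to 30 Mb held 1 higher and 5 lower genes among 37 (13.5% lower, beside 10.4% over all genes), and that from 10 to 15 Mb 1 higher and 5 lower among 31. Windows that were less opposed held as many lower genes, 6 of 37 from 60 to 65 Mb and 5 of 37 from 40 to 45 Mb. The chromosome 31 window from 25 to 30 Mb held 0 higher and 2 lower among 25. In the first 5 Mb of chromosome 8, whose r with the chromosome 31 score was 0.043, 10 were higher and 3 lower of 84. From 45 to 50 Mb 9 were higher and 3 lower of 60. Among the 42 chromosome 8 genes with r below -0.3 against the chromosome 31 score 0 were higher and 10 lower, and among the other 322 scored genes 39 and 18. Among the 13 such genes of chromosome 31 0 were higher and 3 lower, and among the other 86 13 and 4. Over all genes tested 6.37% were higher and 10.4% lower. The mean chromosome 31 score was 0.067 in surgical and -0.031 in untreated tumours, and the mean chromosome 8 score 0.040 and -0.017. Genes that ran against such a score lean towards lower values in surgical tumours beforehand, so the counts by class support nothing. The windows and these classes were formed from the same libraries, and the difference between them was not tested.

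ENSCAFG00000017040, on chromosome 8 from 48331026 to 48333467, had the largest fold change upward among the named genes. Its log2 CPM ran from 4.96 through 6.58 to 8.02 in untreated and from 6.78 through 9.74 to 11.57 in surgical tumours, with the untreated median exceeded in 22 of 22 surgical tumours. Its fitted log2 fold change was 3.18 (SE 0.332, edgeR adjusted p 2.46e-09). The groups overlapped only between 6.78 and 8.02. Its r with the chromosome 31 score was 0.403, so that it ran with the other chromosome. ENSCAFG00000018311 lies on the same chromosome from 71610711 to 71717199, and its log2 fold change was 1.64 (SE 0.464, edgeR adjusted p 0.0101). Its log2 CPM ran from -1.16 through 2.29 to 4.17 in untreated and from -1.16 through 4.17 to 5.42 in surgical tumours, of which 15 of 22 exceeded the untreated median. A gene of at most 10 counts, ENSCAFG00000029769, lies within it on the opposite strand.

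Both named lower genes also lay on chromosome 8. ENSCAFG00000011613, from 3625309 to 3661444, had counts from 0 through a median of 16 to 206 in untreated and from 0 through 0 to 16 in surgical tumours. The fitted log2 fold change was -4.10 (SE 0.768, edgeR adjusted p 0.000291), and 0 of 22 surgical values exceeded the untreated median. It overlaps ENSCAFG00000011619 and ENSCAFG00000020615 on the opposite strand, and its counts are uncertain for that reason. ENSCAFG00000032722, from 62843300 to 62903444, had counts from 0 through 90 to 626 in untreated and from 0 through 4 to 162 in surgical tumours. Its fitted log2 change was -3.78 (SE 0.711, edgeR adjusted p 0.000297), and 1 of 22 surgical values exceeded that median. The highest surgical values of both lower genes were in Sx replicate 1, the surgical tumour whose sample name starts with N. On the first principal component it stood at 36.8, and all other surgical tumours lay below 0. Untreated replicates 5, 14 and 19 (-54.3, -52.3 and -59.9) held 2, 2 and 0 counts of ENSCAFG00000032722. Replicates 10 and 11 (127.8 and 105.4) held 468 and 626, and replicate 12 (-4.16) held 589. The part of this component in the fold changes was not tested. Untreated tumours ranged from 0 counts upward for both lower genes, so the groups overlapped.

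Calls were few within the ranges of sample name numbers. Within the numbers 11 to 16 edgeR called 0 of the genes of either chromosome, and within 17 to 22 it called 1 higher and 2 lower on chromosome 8 and 2 higher and 0 lower on chromosome 31. Each range holds fewer tumours than the full fit. Without the 6 libraries set apart on the first principal component the counts were 29 higher and 32 lower on chromosome 8 and 13 and 11 on chromosome 31. Shares over all genes are not given for these fits, so the counts are not a result particular to these chromosomes.

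By edgeR the contrasts of steroid against untreated and of SxRT against Sx gave almost no calls on these chromosomes. The tumours with radiotherapy alone were not tested against untreated tumours. In steroid against untreated tumours (7 against 27) edgeR called 0 of 490 genes of chromosome 8 and 1 of 160 on chromosome 31. Over all genes 0.256% were called higher and 0% lower. Of the 650 genes 81 (12.5%) had an unadjusted edgeR p under 0.05, near the 11.0% over all genes. DESeq2 called 2 and limma voom 17, and shares over all genes are not given for these tools. The called gene, ENSCAFG00000010223, on chromosome 31 from 36223507 to 36286699, had a log2 CPM from 1.32 through 2.65 to 6.25 in steroid and from -1.16 through 2.00 to 3.43 in untreated tumours. Its log2 fold change was 1.99 (SE 0.452, edgeR adjusted p 0.0290), and 6 of 7 steroid values exceeded the untreated median. The value of 6.25 was that of steroid replicate 5, the library with 12063982 counts and 46.7% mitochondrial counts, and without it the fold change was 0.35 (edgeR adjusted p 0.919). It shares bases with ENSCAFG00000010228 on the same strand. In SxRT against Sx tumours (9 against 13) edgeR called 0 of 650, beside 0.0109% higher and 0% lower over all genes. An unadjusted edgeR p under 0.05 was found for 37 (5.69%), near the 5.11% over all genes. DESeq2 called 1 and limma voom 0. The median fold change of chromosome 8 was -0.14, that of chromosome 31 -0.02 and that of all genes -0.04.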

How the data were processed

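Total RNA of 62 canine meningiomas was sequenced as 150 nt pairs, per the labels' protocols. The deposited table holds raw counts per gene, made by the authors with featureCounts 2.0.4 over exons of Ensembl 100 genes on CanFam3.1, without regard to strand and with each read of a pair counted, per the file headers. Between 79.3% and 95.3% of a library's counts from 1 to 20 were even, so counting precision is lower than the totals show. STAR and DESeq2 are named in the submitters' processing notes, with versions not given in the sources used here.

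The members, windows, gene classes and tests were chosen with earlier results of these data known. The filterByExpr filter, by treatment group, left 18370 genes, which were scaled by TMM and fitted with edgeR 4.0.16 (R 4.3.3) over all 62 libraries with 6 treatment groups, sex and neuter status. P-values were adjusted by Benjamini-Hochberg over all genes tested. Alternatives used DESeq2 1.42.0, limma 3.58.1 (voom with quality weights), RLE scaling, no filter, no covariates, subsets of libraries and left-out libraries. Fits and scores were tested on simulated data. Scores used log2 CPM with a prior count of 2, computed with numpy 2.4.6 and pandas 2.3.3, and figures matplotlib 3.10.9. The name table matched 0 identifiers.

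Named genes were, for the opposition, the 2 scored genes per chromosome with the lowest r against the other chromosome's score. For a contrast they were the 2 largest fold changes per direction among called genes (adjusted p under 0.05) whose mean log2 CPM reached 1 and whose group medians differed by 0.5 or more in the same direction. Groups came from the treatment label and replicate numbers from accession order. P-values measure the spread between these samples, taken as separate dogs.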

Additional observations from a re-analysis of the deposited data

Results flagged for a closer look

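In 22 sets of values from the groups of 4 to 10 tumours (steroid and SxRT) the highest and lowest value were compared with the rest. Of these sets, 4 held a value far out (Dixon's criterion, which flags about 1 in 20 independent sets by chance). The sets share the same libraries and are not independent. The chromosome 8 score of steroid replicate 2 was 0.207, with the next highest steroid tumour at -0.0009, and this library is 1 of the 4 opposed past 0.2. ENSCAFG00000014219 stood at a log2 CPM of 4.28 in steroid replicate 5, with the next lowest steroid tumour at 6.15. ENSCAFG00000010223 stood at 6.25 in the same library, with the next highest at 2.73. ENSCAFG00000011613 stood at 1.42 in SxRT replicate 5, with the next highest SxRT tumour at -0.20.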

How the results depend on the processing

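No paired analysis was possible because replicate numbers follow accession order. For the chromosome scores (r -0.357) the direction turned with the more highly expressed genes (0.170), the shorter genes (0.284) and the first parts of both chromosomes (0.063). Further values were -0.547 with a median over genes, -0.225 with a log2 CPM minimum of 0, -0.020 without the autosome median, -0.493 for deviations from group means, -0.580 in surgical tumours, -0.518 and -0.144 in name numbers 11 to 16 and 17 to 22, -0.523 with the first component taken out, -0.108 without the 4 opposed libraries (whose removal moves r towards 0 by construction), -0.187 without the 3 highest on chromosome 8, and by parts -0.151 (second parts), -0.516 (first of 8, second of 31) and -0.197 (second of 8, first of 31). Leaving out 1 library gave -0.398 to -0.285. Opposed libraries numbered 4, with 8 at a limit of 0.1 and 0 at 0.3. The pair of windows (-0.687) had -0.619 without the autosome median, -0.573 with a log2 CPM minimum of 0, -0.578 in untreated and -0.777 in surgical tumours, and -0.711 to -0.647 with 1 library left out. Surgical calls on chromosome 8 (42 higher, 50 lower) and chromosome 31 (16, 14) by edgeR were 0 in name numbers 11 to 16, and 1, 2, 2 and 0 in 17 to 22. Lower calls were 26 on chromosome 31 with no filter, and 32 on chromosome 8 without the 6 libraries. In the chromosome 31 window higher calls (12) were 0 and 2 in the 2 ranges of name numbers. In the chromosome 8 window lower calls (5) were 9 with DESeq2 and 0 in both ranges. Steroid calls (1) were 4 with no filter, 2 with DESeq2, 17 with limma voom, 0 with only the groups compared and in both ranges, 2 without the 6 libraries and 0 to 4 without 1 steroid library. SxRT calls (0) were 1 with DESeq2 and 0 to 1 without 1 library. The named surgical genes lost their call in 1 or 2 of 9 alternatives each, and the steroid gene in 5 of 15. Shares over all genes are not given for the alternatives to the main fit. The causes were not tested. The alternatives without the 6 libraries, without the opposed or highest libraries and all those on the pair of windows were chosen after seeing the data. Identifiers without names and the absence of copy number and cell markers limit what the scores can show.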
